A study of Rattus norvegicus with 82 samples.

Results

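This is the comparison of hearts taken 6 h after colchicine at 0.2 mg/kg with hearts taken 6 h after saline. Its 12 arrays are those whose titles name these treatments and this time, 6 in each group, out of 82 arrays in 14 groups. All animals were male Wistar rats of the strain Crl:Wi(Han), every agent was given intravenously, and the 0.9% saline vehicle was also the control. Total RNA of whole heart was measured on Affymetrix expression arrays, 1 array an animal. Other groups used beside these are colchicine at 2 mg/kg, 6 h, and colchicine at 0.2 mg/kg, 24 h, each of 6 arrays, the latter against 6 arrays of saline at 24 h. The labels give no age. The heart holds many cell types, and in bulk RNA fewer cells of a type and less RNA per cell cannot be told apart.

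Colchicine binds the tubulin dimer and prevents its assembly into microtubules, the polymers of alpha and beta tubulin that carry cargo through the cell, form the spindle and build the core of cilia. Cells are known to break down tubulin messenger RNA when free tubulin dimer accumulates. The RFX proteins are transcription factors known for switching on genes of cilia through a DNA element called the X-box, and TPPP and its relative TPPP3 are proteins that bind and bundle microtubules.

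In 4 of the 6 colchicine hearts the transcription factor Rfx2 stood well above every saline heart, together with Rfx3, Tppp, Tppp3 and Fam216b, while messenger RNA of 6 alpha and beta tubulins and of gamma tubulin Tubg1 was low. In the remaining 2 hearts, replicates 1 and 6, these genes lay at or near the saline level, with 1 exception. Fam216b in replicate 6 lay between saline and the other 4 hearts. With all arrays used as labelled, 31 of 11323 genes tested passed an adjusted p of 0.05 (limma, Benjamini-Hochberg adjustment), which is 0.274% of them: 28 were higher after colchicine and 3 lower. The median log2 difference over all genes tested was 0.01, and no tubulin passed. After quantile normalization 45 genes passed, 36 higher and 9 lower, 1 tubulin among the latter.

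Replicates 1 and 6 have to be described before the results. For every array, a root mean square log2 difference was taken from the median profile of the other arrays of its own group. It was set against that from the median profile of each other group. Over 1.3 times nearer another group than their own lay 10 of the 82 arrays, among them colchicine replicate 1 with a ratio of 1.44 and replicate 6 with 1.41, both nearest saline at 24 h. The ratios of colchicine replicates 2 to 5 lay between 0.854 and 0.898. No saline array at 6 h passed the limit. Still, 5 of the 6 lay nearer another group than their own, at ratios up to 1.23. The cause was not tested, and both arrays stay in the results as labelled. Values without those 10 arrays are given beside them. That setting drops 8 arrays of other groups as well. As the arrays were picked by their expression, more calls, larger differences or smaller p-values without them follow in part from the choice. They are no separate evidence. Array medians of intensity lay between 57.5 and 63.2 over all 82 arrays. The p-values measure the spread between animals within groups, pooled over all 14 groups and not taken from the compared groups alone. About these animals the labels give no litter, batch or day.

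The tissue matched its label. Cardiomyocyte markers such as Myh6 (cardiac myosin heavy chain) and Tnnt2 (cardiac troponin T) had mean intensities of 24046 and 23029 in saline and of 24153 and 23568 after colchicine. Saline replicate 2 held more atrial message than the others: Myl4, the atrial essential light chain, read 2300 in it, 60.8 to 101 in the other saline hearts, and 45.1 to 83.6 in colchicine replicates 1 to 5, with 249 in replicate 6. Without saline replicate 2 the number of genes past the threshold was 33.

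RFX factors act through the X-box, so the promoters of both RFX genes that rose and of Fam216b are shown. They come from RefSeq (GRCr8), run 5′ to 3′ in the direction of transcription, and cover 250 bases before the annotated start and 30 after it. Rfx2 lies at chr9:1758117-1758396, minus strand. The window of Rfx3 is chr1:235122393-235122672, minus strand, and that of Fam216b is chr15:59891526-59891805, also minus. Capitals mark matches to GTTGCC, a short form of the X-box, or to its palindromic long form (GTNNCC, NN and GGNNAC in a row), each searched on both strands with overlaps allowed.
Rfx2: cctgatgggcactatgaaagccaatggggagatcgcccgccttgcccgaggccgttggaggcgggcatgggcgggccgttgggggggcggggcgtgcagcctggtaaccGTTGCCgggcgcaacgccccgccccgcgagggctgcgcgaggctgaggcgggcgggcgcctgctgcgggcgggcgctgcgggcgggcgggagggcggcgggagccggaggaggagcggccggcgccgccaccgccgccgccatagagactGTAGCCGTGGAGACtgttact
Rfx3: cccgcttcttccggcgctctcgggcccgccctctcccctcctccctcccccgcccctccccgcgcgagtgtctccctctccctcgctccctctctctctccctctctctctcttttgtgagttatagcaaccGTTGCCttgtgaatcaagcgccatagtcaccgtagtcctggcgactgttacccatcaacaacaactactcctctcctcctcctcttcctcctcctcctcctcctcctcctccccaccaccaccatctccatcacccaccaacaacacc
Fam216b: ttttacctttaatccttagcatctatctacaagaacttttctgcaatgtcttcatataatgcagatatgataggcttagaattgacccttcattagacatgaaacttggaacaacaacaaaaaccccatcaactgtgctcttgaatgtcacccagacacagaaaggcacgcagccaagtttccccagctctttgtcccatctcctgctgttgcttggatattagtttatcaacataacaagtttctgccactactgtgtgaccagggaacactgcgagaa
The short form began 141 bases before the start in Rfx2 and 118 before it in Rfx3. The long form, GTAGCCGTGGAGAC, began at base 10 after the start of Rfx2. Neither form occurred in the Fam216b window. Over 300 bases a promoter, 12.4% of the 9417 tested genes with a promoter in the table held the short form and 1.94% the long form. Among the 28 genes that rose, 24 had a promoter there, and 2 of these held each form (8.33%); the other long form was in Prpf19. A match is a description of the letters, not a site of binding.

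Rfx2 gave the largest difference of all genes past the threshold. Its intensity in saline ran from 46.2 to 73.6 with a median of 59.0, and after colchicine from 62.7 to 652 with a median of 521. Replicates 2 to 5 read 575, 533, 508 and 652, while replicate 1 read 62.7, inside the saline range, and replicate 6 read 81.0, just above it. The log2 difference was 2.05 ± 0.30 (SE, n = 6 in each group; limma, Benjamini-Hochberg adjusted p = 1.5e-05), and all 6 colchicine hearts lay above the saline mean. Without the arrays that stand apart it was 2.96.

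Rfx3, a second RFX factor of ciliated cells, was near the bottom of the array's range in saline, at 18.5 to 23.2 with a median of 19.4. After colchicine it ran from 18.5 to 86.7 with a median of 48.2. The same 4 hearts were the high ones, at 48.8, 47.6, 82.9 and 86.7, and replicates 1 and 6 lay at the saline level with 18.5 and 20.8. The log2 difference was 0.77 ± 0.16 (limma, Benjamini-Hochberg adjusted p = 0.0055). Rfx3 entered the test only through the colchicine arrays, since without them too few arrays exceeded the minimum intensity, and of 11323 genes 10 did so. A second probe set for Rfx3, below that minimum, differed by -0.02.

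Tppp3 ran from 361 to 466 in saline (median 418) and from 435 to 2645 after colchicine (median 2349). Replicates 2 to 5 read 2299, 2499, 2645 and 2400, and replicates 1 and 6 read 435 and 530, so the groups overlapped through replicate 1 alone. The log2 difference was 1.74 ± 0.41 (limma, Benjamini-Hochberg adjusted p = 0.038). Tppp, the founding member of the family, ran from 594 to 739 in saline (median 714) and from 703 to 1771 after colchicine (median 1493). Its log2 difference was 0.84 ± 0.15 (limma, Benjamini-Hochberg adjusted p = 0.00061), again with replicates 1 and 6 lowest at 703 and 840. These were the 2 of 33 tested microtubule-associated protein genes that passed (0.247% of all genes rose), and none of the 33 passed in the lower direction. The list was drawn up with Tppp3 already known to stand out here, so this count is no independent evidence. Tppp3 is also counted in the list of RFX factors and genes of cilia below.

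Fam216b ran from 57.6 to 103 in saline (median 75.4) and from 76.0 to 450 after colchicine (median 366). Replicate 1 fell inside the saline range and replicate 6, at 140, lay between saline and the other 4. The log2 difference was 1.55 ± 0.31 (limma, Benjamini-Hochberg adjusted p = 0.0054).

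The list of RFX factors and genes of cilia was drawn up with Rfx2, Tppp3 and Fam216b already known to stand out here, so its count is no independent evidence. Of its 36 tested members 4 rose (Rfx2, Rfx3, Fam216b and Tppp3) and none fell, where 0.247% of all genes rose. Rfx3 is counted there although it entered the test only through the arrays in which it is high. At an unadjusted p under 0.05, 15 were higher and 2 lower (3.95% and 2.73% of all genes), and the list's median log2 difference was 0.11 against 0.01 over all genes. Next in line was Ift81, a subunit of the intraflagellar transport train that moves cargo along cilia, at 274 to 415 in saline (median 338) and 415 to 573 after colchicine (median 442). Its groups met without overlap, replicate 6 was its highest colchicine heart, and its log2 difference of 0.45 ± 0.12 did not pass (limma, Benjamini-Hochberg adjusted p = 0.066). Without the arrays that stand apart 7 members were past the threshold, with Rfx1 (0.50), Tekt4 (0.48) and Ift46 (0.52) as the additional ones and Ift81 still outside. In that fit 1.1% of all genes were called higher. Of 15 listed markers of ciliated epithelium 7 were on the array, and 2 of those, Foxj1 and Dnai1, exceeded the minimum intensity. Their summed intensity was 80.2 to 102 in saline and 78.5 to 97.7 after colchicine, and the defining genes Rsph1, Tekt1 and Ccdc40 stayed below the minimum.

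**Figure D1:**
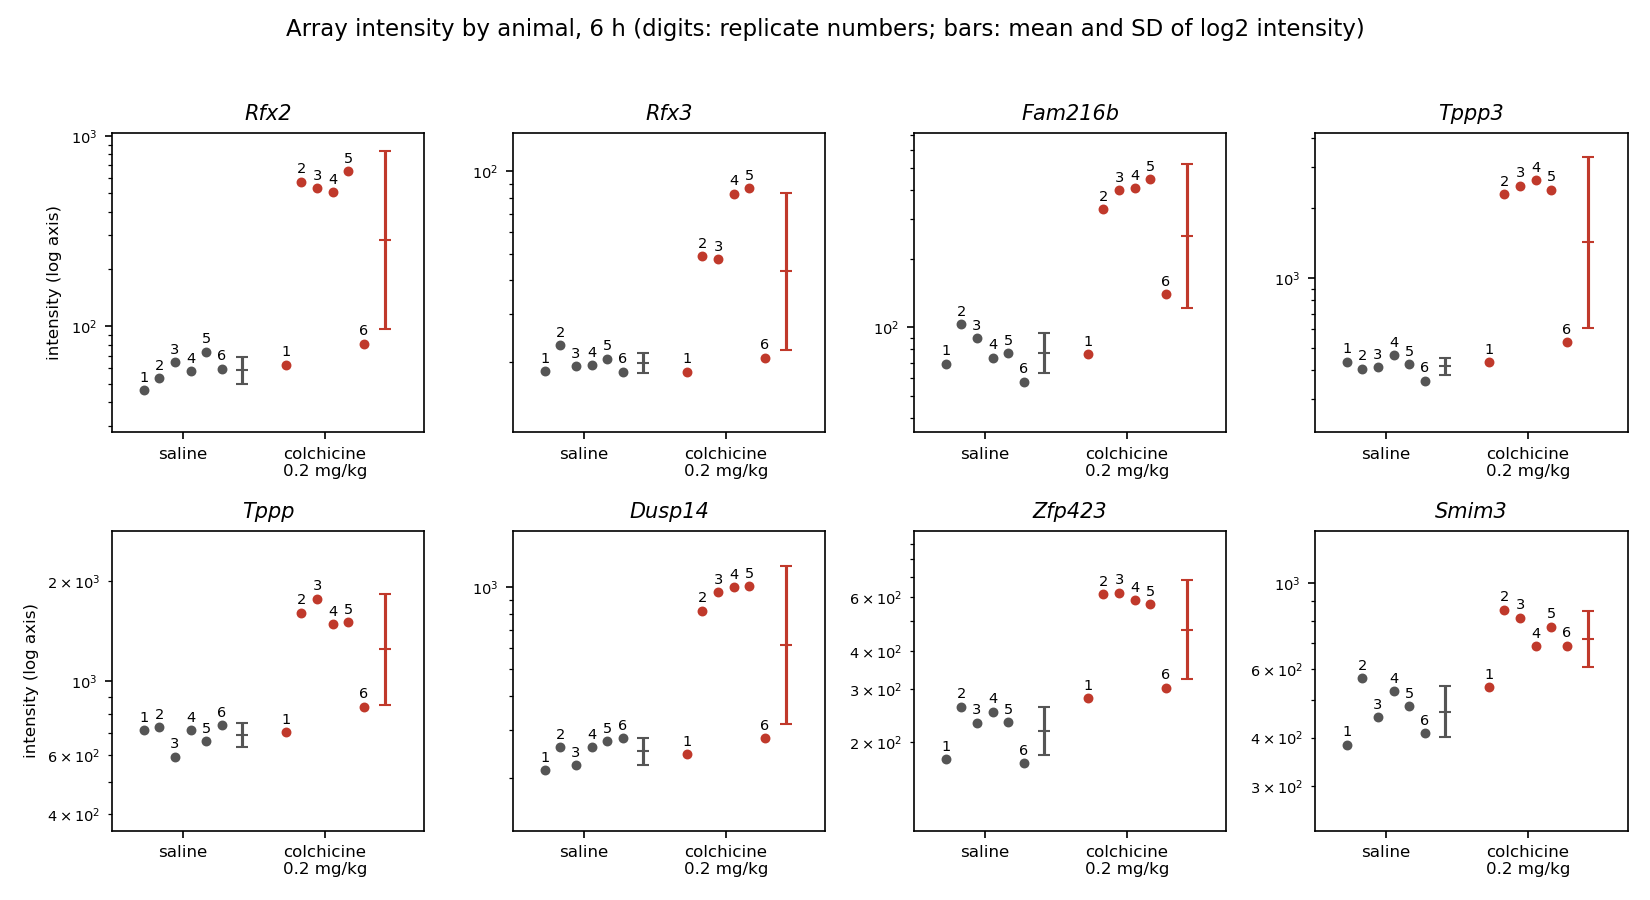
Array intensity (log axis) of 8 genes past the threshold in each saline and each colchicine 0.2 mg/kg heart at 6 h. Points are animals numbered by replicate, and bars are the mean and SD of log2 intensity. In all 8 panels replicate 1 is the lowest colchicine heart, and in Rfx2 replicates 2 to 5 sit between 508 and 652.

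The other genes past the threshold are sorted here by what each is known to do, after their values were seen, and no group of them was tested as such. Dusp14, a dual-specificity phosphatase that acts on MAP kinase signalling, ran from 214 to 280 in saline (median 259) and from 244 to 1007 after colchicine (median 890). Replicates 2 to 5 read 822, 959, 1003 and 1007, and replicates 1 and 6 read 244 and 280. The log2 difference was 1.26 ± 0.21 (limma, Benjamini-Hochberg adjusted p = 0.00022). Peli1, a ubiquitin ligase of Toll-like receptor and interleukin-1 signalling, rose by 0.56 ± 0.11 on the log2 scale, from a median of 246 to one of 430, with replicate 1 inside the saline range of 213 to 288 and replicate 6, at 286, also inside it. Ptpn14, a tyrosine phosphatase of the Hippo pathway, rose by 0.66 ± 0.15, and its other 4 probe sets gave 0.68, 0.39, 0.09 and -0.03. Arhgap24, which switches off Rac, rose by 0.61 ± 0.15. Cntf, ciliary neurotrophic factor, a cytokine named for the ciliary ganglion and not for cilia, rose by 0.55 ± 0.13 from a low mean of 31.0.

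Of 29 tested genes listed for ion channels, gap junctions and calcium handling none passed, with 1 higher and 1 lower at an unadjusted p under 0.05 and a median log2 difference of -0.02. Over all genes 3.95% were higher and 2.73% lower at that unadjusted p. Without the arrays that stand apart 1 of the list was called higher and 1 lower, against 1.1% and 0.362% of all genes. Both genes that follow are outside that list. Itpr1, the inositol trisphosphate receptor that releases calcium from the endoplasmic reticulum, ran from 176 to 232 in saline (median 215) and from 223 to 347 after colchicine (median 316). The groups overlapped through replicate 6 at 223, and the log2 difference was 0.44 ± 0.10. Calm2, one of the genes of the calcium sensor calmodulin, ran from 3327 to 4896 in saline (median 4583) and from 5033 to 7022 after colchicine (median 6195). Its groups did not overlap, and the log2 difference was 0.45 ± 0.11. Both adjusted p-values passed (limma, Benjamini-Hochberg; 0.023 and 0.046).

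Zfp423, a zinc finger factor, ran from 171 to 262 in saline (median 232) and from 279 to 621 after colchicine (median 578), without overlap. The difference of 1.06 ± 0.24 on the log2 scale is that of the probe set that represents it, 1 of 4: another gave 0.36 and the remaining ones -0.09 and -0.07, so the gene's probe sets disagree. Foxp2, a forkhead factor, rose by 0.61 ± 0.15, Esrrg, an orphan nuclear receptor that supports mitochondrial genes in muscle, by 0.57 ± 0.14, and Taf4b, a TFIID subunit, by 0.70 ± 0.17. Polr3b, a subunit of RNA polymerase III, rose by 0.25 ± 0.06, the smallest difference past the threshold, with 142 to 155 after colchicine against 112 to 133 in saline.

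Smim3, a small membrane protein, had the same adjusted p as Rfx2 (1.5e-05; limma, Benjamini-Hochberg) at a smaller difference of 0.61 ± 0.09. It ran from 383 to 570 in saline (median 467) and from 539 to 855 after colchicine (median 732), and replicate 6 at 690 was level with replicate 4. Tmem263 rose by 0.68 ± 0.12 without overlap, Ankrd50, a protein of endosomal recycling, by 0.66 ± 0.11, and Mpped2, a metallophosphoesterase, by 0.67 ± 0.14. Slc37a1, a glucose-6-phosphate transporter, rose by 0.54 ± 0.12, Apobec2, a muscle member of the deaminase family, by 0.60 ± 0.14, and Insig2, which holds back sterol synthesis from the endoplasmic reticulum, by 0.35 ± 0.08. Trim37, a ubiquitin ligase that limits centriole assembly, rose by 0.35 ± 0.08, Klhdc8b by 0.43 ± 0.11 and the splicing factor Prpf19 by 0.43 ± 0.11. The uncharacterised locus LOC102554253 rose by 0.93 ± 0.19.

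Of the 31 genes 3 fell. Slc38a3, a glutamine transporter, ran from 252 to 312 in saline (median 271) and from 143 to 221 after colchicine (median 184), without overlap, and fell by 0.56 on the log2 scale (SE 0.13; limma, Benjamini-Hochberg adjusted p = 0.040). Isg20, an interferon-induced exonuclease, ran from 37.3 to 48.6 in saline and from 28.3 to 31.7 after colchicine, and fell by 0.35 (SE 0.09). LOC102549303 fell by 0.31 (SE 0.07). Isg20 and LOC102549303 exceeded the minimum intensity on no colchicine array. In none of these 3 genes were replicates 1 and 6 the 2 colchicine hearts nearest saline.

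Across the 31, both groups were apart without overlap in 10 genes, 8 higher and 2 lower, against 0.468% of all genes tested (0.336% higher, 0.132% lower). All 6 colchicine hearts lay on one side of the saline mean in 26 of the 31, against 1694 of all 11323 genes. Replicates 1 and 6 were the 2 colchicine hearts nearest saline in 22 of the 28 genes that rose (78.6%), against 12.2% of all genes. Those shares describe genes that the same arrays had selected. The intensity plus a constant of 16 was used for logs, which understates the change of dim genes such as Rfx3, Cntf and Isg20.

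**Figure D2:**
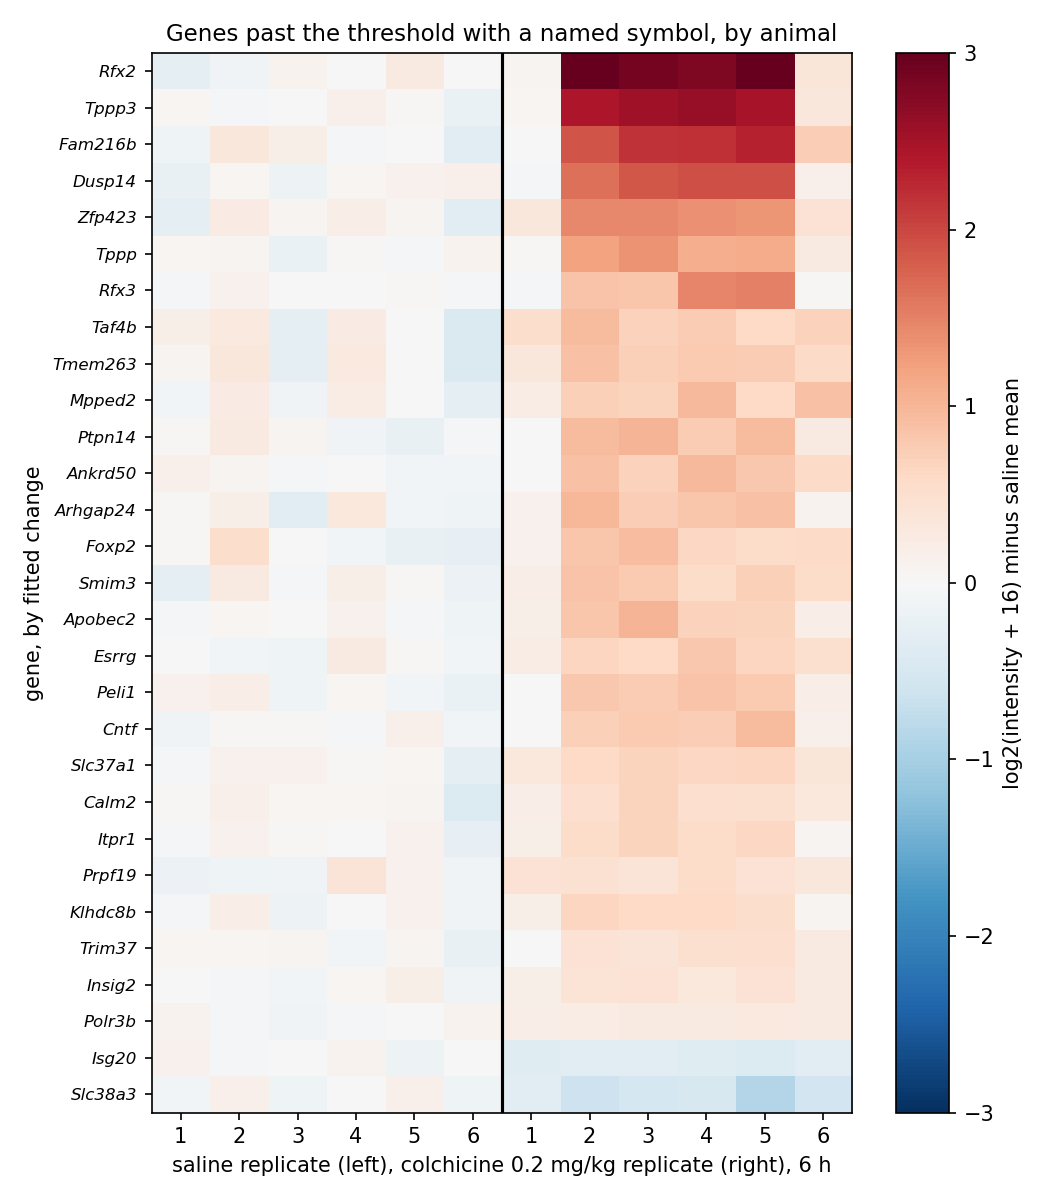
Log2(intensity + 16) of each heart minus the saline mean, for the 29 genes past the threshold with a named symbol, ordered by fitted change. Columns are saline replicates (left of the line) and colchicine 0.2 mg/kg replicates (right), 6 h; for Rfx2 colchicine replicates 2 to 5 lie at the top of the scale, and replicates 1 and 6 are the palest colchicine columns.

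The number of calls depended on single hearts and on the spread used. It was 80 without colchicine replicate 1 and 59 without replicate 6, but 10, 11, 9 and 12 without replicates 2, 3, 4 and 5. Without saline replicates 1 to 6 in turn it was 11, 33, 15, 24, 19 and 14. Fitted on the 12 compared arrays alone it was 4, among them Esrrg, Slc37a1 and Slc38a3, each with an adjusted p of 0.049 (limma, Benjamini-Hochberg), while Rfx2 had 0.13 there. Without the 10 arrays that stand apart it was 166 (1.47% of genes; 125 or 1.1% higher, 41 or 0.362% lower), which held 30 of the 31. Rfx2, Smim3, Dusp14, Ankrd50, Tmem263, Tppp, Peli1 and Fam216b passed in all 24 alternatives except the fit on the compared arrays.

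Tubulin genes also split the hearts. All 9 alpha and beta tubulins tested had a lower mean after colchicine, with a median log2 difference of -0.84, and 6 had an unadjusted p under 0.05 (6.68% of all genes did), but none passed after adjustment. Tuba4a, an alpha tubulin, read 4732 to 6258 in saline (median 5187). After colchicine it read 892, 727, 650 and 760 in replicates 2 to 5, and 5791 and 5638 in replicates 1 and 6. The former lay far below every saline heart and the latter inside the saline range. The log2 difference over all 6 was -1.83 ± 0.49 (limma, Benjamini-Hochberg adjusted p = 0.076), and without the arrays that stand apart -2.79 (adjusted p = 1.2e-12). The latter p-value follows in part from the choice of arrays left out.

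Tubb4b, a beta tubulin, gave the same picture at 779, 703, 660 and 629 in replicates 2 to 5 and 3502 and 3249 in replicates 1 and 6, against 2802 to 3994 in saline. Its log2 difference was -1.47 ± 0.42 (limma, Benjamini-Hochberg adjusted p = 0.12). Tuba8, the muscle-enriched alpha tubulin, read 465 to 523 in replicates 2 to 5, 2681 and 2463 in replicates 1 and 6, and 1760 to 2836 in saline. Tubb2a, Tubb5 and Tubb6 split the same way, with differences of -0.86 ± 0.34, -0.84 ± 0.27 and -0.43 ± 0.18. In Tubb6 replicates 2 to 5 reached 131 at most, below the lowest saline heart at 145.

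The other 3 tubulins did not split. Tubb1, the beta tubulin of platelets, ran from 33.2 to 47.4 in saline and from 33.9 to 47.6 after colchicine. Tubb2b ran from 38.7 to 46.6 and from 36.4 to 40.2, and Tubb4a, a beta tubulin of the nervous system, from 438 to 517 and from 410.5 to 467. Their log2 differences lay between -0.11 and -0.05, and without the arrays that stand apart they had adjusted p-values of 0.85 or more (limma, Benjamini-Hochberg). Without those arrays the other 6 were past the threshold as lower, where 0.362% of all genes were, and the 9 had a median of -1.298. The arrays left out were picked by their expression, so that count is no separate evidence.

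Gamma tubulin Tubg1, which nucleates microtubules, split the hearts the same way. It read 189, 189, 193 and 201 in colchicine replicates 2 to 5, 427 and 488 in replicates 1 and 6, and 364 to 484 in saline. The log2 difference was -0.68 ± 0.21 (limma, Benjamini-Hochberg adjusted p = 0.22), and -1.07 without the arrays that stand apart. The remaining 10 tested genes of the gamma tubulin complex and minor tubulins did not pass in either fit. None of 20 genes of the CCT chaperonin and tubulin cofactors, which fold tubulin, passed in either fit (1 at an unadjusted p under 0.05), and none of 11 tubulin-modifying enzymes did (1 at an unadjusted p under 0.05). Among 30 kinesin and dynein genes none passed, and none had an unadjusted p under 0.05. Over all genes 6.68% had an unadjusted p under 0.05.

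**Figure D3:**
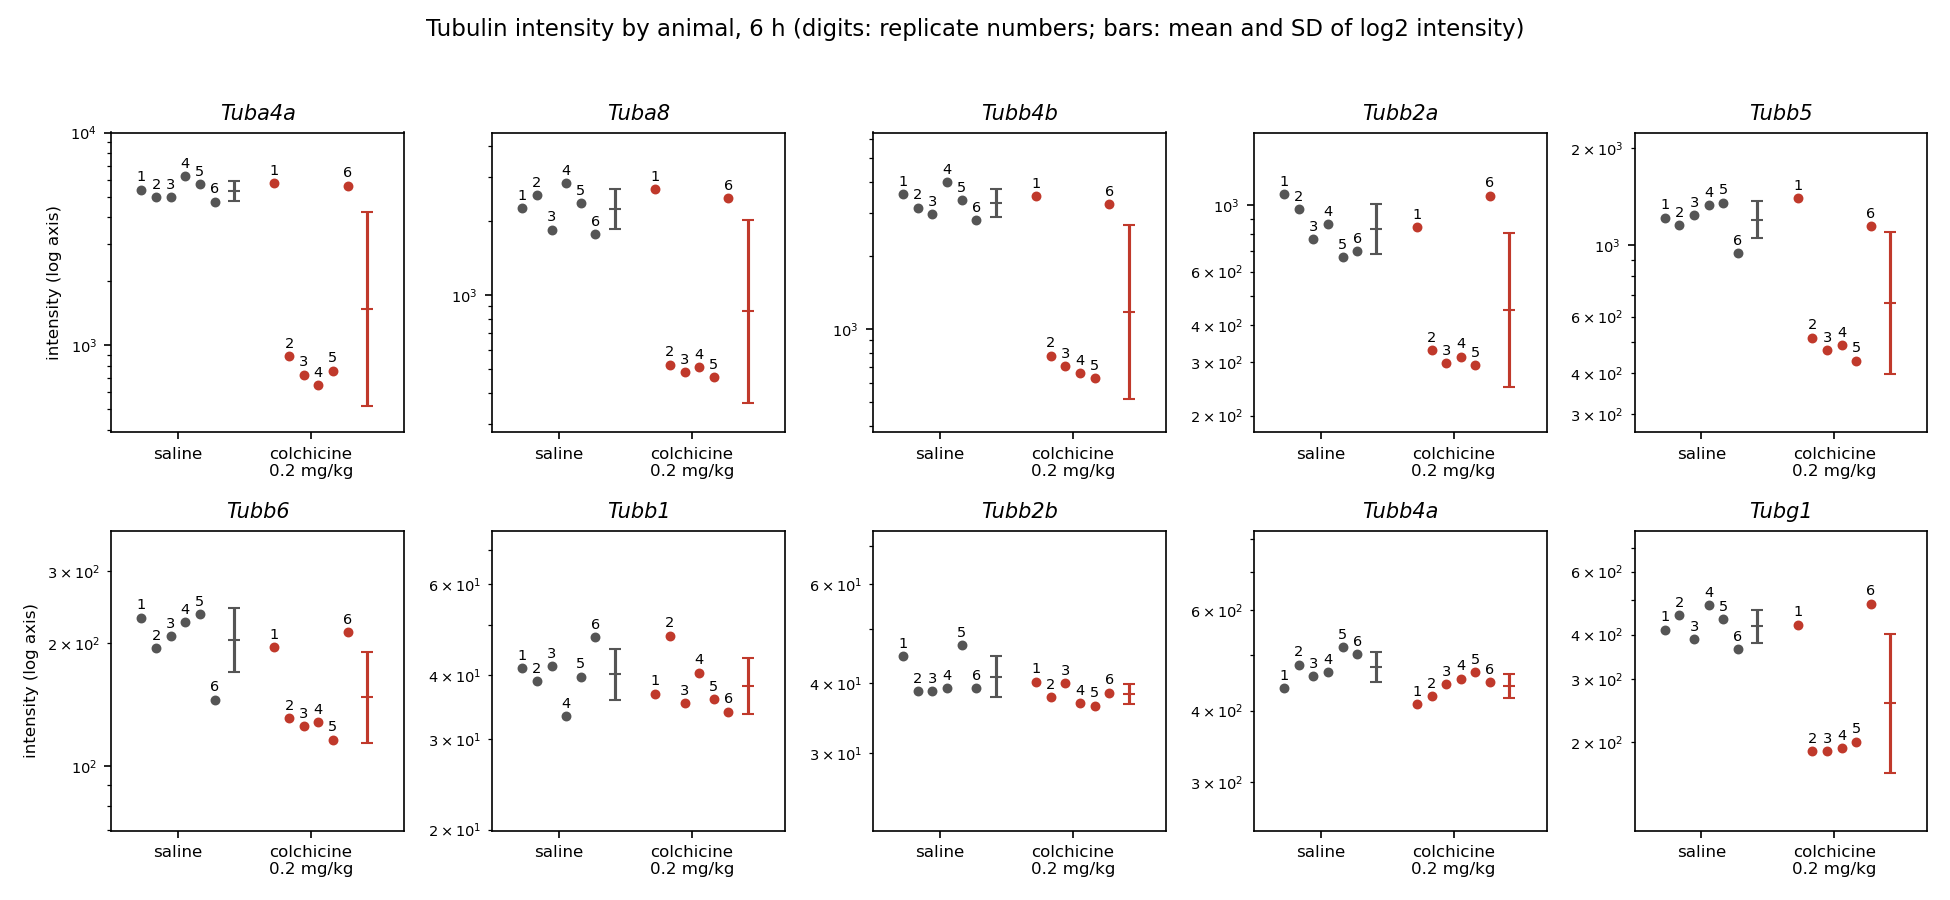
Array intensity (log axis) of 9 alpha and beta tubulins and gamma tubulin Tubg1 in each heart at 6 h. Points are animals numbered by replicate, and bars are the mean and SD of log2 intensity. Colchicine replicates 1 and 6 sit with saline in Tuba4a (5791 and 5638), while replicates 2 to 5 lie between 650 and 892.

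Heat shock chaperones had 2 members past the threshold without the arrays that stand apart and none with them (20 tested, 4 higher at an unadjusted p under 0.05). Over all genes 1.1% were called higher without those arrays, and 3.95% were higher at an unadjusted p under 0.05 with them. Hspa1a, an inducible HSP70, read 988, 2039, 1692 and 2005 in colchicine replicates 2 to 5, 274 and 257 in replicates 1 and 6, and 312 to 438 in saline. Its replicates 1 and 6 lay below every saline heart, and its log2 difference was 1.27 ± 0.34 (limma, Benjamini-Hochberg adjusted p = 0.076; 2.11 without the arrays that stand apart). Hspb8, a small heat shock protein of muscle, ran from 2548 to 3134 in saline and from 2937 to 4607 after colchicine, a difference of 0.38 ± 0.11 (limma, Benjamini-Hochberg adjusted p = 0.10; 0.52 without those arrays).

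Stress and inflammatory programmes gave few calls. Of 18 cardiac stress genes none passed and none had an unadjusted p under 0.05. Without the arrays that stand apart Fhl1, a LIM protein linked to stretch, was higher by 0.43 and Fhl2 was lower by 0.47 (log2 difference -0.47). None of 21 NF-kappaB targets, 31 chemokines and cytokines or 5 neutrophil markers passed in either fit (0 at an unadjusted p under 0.05 in each), and of 30 immediate early genes none passed (1 lower at an unadjusted p under 0.05). Of 25 interferon-stimulated genes Isg20 alone passed. None of 24 p53 targets and apoptosis regulators passed (2 lower at an unadjusted p under 0.05), and none of 27 mitosis and proliferation genes did (3 lower at an unadjusted p under 0.05). Over all genes 3.95% were higher and 2.73% lower at that unadjusted p, and 0.247% were called higher and 0.0265% lower. Without the arrays that stand apart 1.1% were called higher and 0.362% lower.

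No energy or proteasome gene passed. Of 39 oxidative phosphorylation genes 37 had a higher mean after colchicine, with a median log2 difference of 0.04, and 2 had an unadjusted p under 0.05. Of 37 proteasome and muscle atrophy genes 33 had a higher mean, with a median of 0.10, and 6 had an unadjusted p under 0.05. Over all genes tested 6334 were higher and 4989 lower, and 6.68% had an unadjusted p under 0.05, 3.95% as higher. No gene of either list passed (limma, Benjamini-Hochberg), and without the arrays that stand apart the medians were 0.00 and 0.05.

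The summed intensity of markers of other cell types overlapped between the groups. That of 26 endothelial markers was 20991 to 27723 in saline and 22444 to 26920 after colchicine, and that of 20 monocyte and macrophage markers 14213 to 19710 and 16645 to 18750. 23 of the 26 endothelial ones had a lower mean, with a median log2 difference of -0.08, and 15 of the 20 macrophage ones, with a median of -0.07, and none of either list passed. Red cell and platelet markers summed to 10849 to 17228 in saline and 9463 to 13608 after colchicine; 6 of 7 had a lower mean, with a median log2 difference of -0.24, none passed, and 3 had an unadjusted p under 0.05. Slc4a1, the red cell anion exchanger, did not overlap between the groups, and it was the 1 marker of this list called without the arrays that stand apart (-0.55; limma, Benjamini-Hochberg adjusted p = 0.019), where the list's median was -0.36. Over all genes 2.73% were lower at an unadjusted p under 0.05, and 0.362% were called lower without the arrays that stand apart. The part of these cell types in the results was not tested.

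The rise at the lower dose was set against the higher dose by direct comparison of the colchicine groups at 6 h. Between 2 and 0.2 mg/kg 1042 of the genes tested differed (9.2%; 4.44% higher and 4.76% lower at 2 mg/kg; limma, Benjamini-Hochberg), and among the 31 genes 23 were lower and 1 higher at 2 mg/kg. The 31 had been selected on the same 0.2 mg/kg arrays, so that count cannot be read against the background. Without the arrays that stand apart 1715 genes differed between doses (15.1%; 7.81% higher, 7.34% lower). Rfx2 read 35.5 to 53.9 at 2 mg/kg (median 41.4), below its saline range in all hearts but replicate 4, and differed from 0.2 mg/kg by -2.41 ± 0.30. Tppp3 read 98.0 to 397 with a median of 132, and differed by -3.08 ± 0.41. Fam216b read 55.5 to 84.5, and Dusp14 149 to 232, with differences of -1.63 ± 0.31 and -1.73 ± 0.21. The adjusted p-values of these 4 were 0.00024 or lower (limma, Benjamini-Hochberg).

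Against saline, which both comparisons share, the 2 doses stood in opposite directions for some genes. Tppp3 differed from saline by 1.74 at 0.2 mg/kg and by -1.34 at 2 mg/kg, and Zfp423 by 1.06 and -0.75, and both passed at both doses (limma, Benjamini-Hochberg adjusted p = 0.024 and 0.035 at 2 mg/kg, where 9.25% of genes passed, 4.88% higher and 4.36% lower). Rfx2 differed by -0.36 at 2 mg/kg and did not pass there. Peli1 and Polr3b were higher at both doses, at 0.35 and 0.22 at the higher one. Of the 9 tubulins 5 were called lower at 2 mg/kg against saline and none at 0.2 mg/kg. In the direct comparison none of the 9 passed between doses (limma, Benjamini-Hochberg), and 1 was higher at 2 mg/kg at an unadjusted p under 0.05. Over all genes 20.6% had an unadjusted p under 0.05 in that comparison. Tuba4a read 502 to 952 in 5 hearts at 2 mg/kg and 4695 in replicate 4, an array that also stood apart by its profile.

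At 24 h the lower dose gave no gene past the threshold against saline of that time (limma, Benjamini-Hochberg; 290 at an unadjusted p under 0.05, or 2.56%). The change at 24 h differed from that at 6 h in 3 genes (0.0265%), all smaller at 24 h: Rfx2 by -2.30 ± 0.42, Smim3 by -0.63 ± 0.13 and Ankrd50 by -0.75 ± 0.16 on the log2 scale (adjusted p = 0.0077, 0.022 and 0.041). These are among the genes selected at 6 h on the same arrays. Without the arrays that stand apart the count was 62 (0.548%; 0.0707% higher, 0.477% lower). Rfx2 at 24 h read 44.0 to 60.3 after colchicine and 56.9 to 73.7 in saline.

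Single hearts at 24 h differed within both groups. Fam216b read 285, 246, 476 and 320 in colchicine replicates 2 to 5, 96.7 and 76.8 in replicates 1 and 6, and at most 83.3 in saline except for replicate 6 at 378. Tppp3 read 1198, 1142, 1164 and 1085 in colchicine replicates 2 to 5, 394 and 154 in replicates 1 and 6, and 451 to 616 in saline except for replicate 6 at 1038. Tuba4a read 2958 in that saline heart against 5182 to 6881 in the others, 2343 to 3508 in colchicine replicates 2 to 5, and 5425 and 671 in replicates 1 and 6. In these genes saline replicate 6 lay among colchicine replicates 2 to 5 or near them, and colchicine replicate 1 lay near the other saline hearts; replicate 6 was low in Tppp3 and Tuba4a and at saline level in Fam216b. The 24 h values rest on these arrays, and Fam216b differed by 1.00 ± 0.31 with them included and did not pass.

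**Figure D4:**
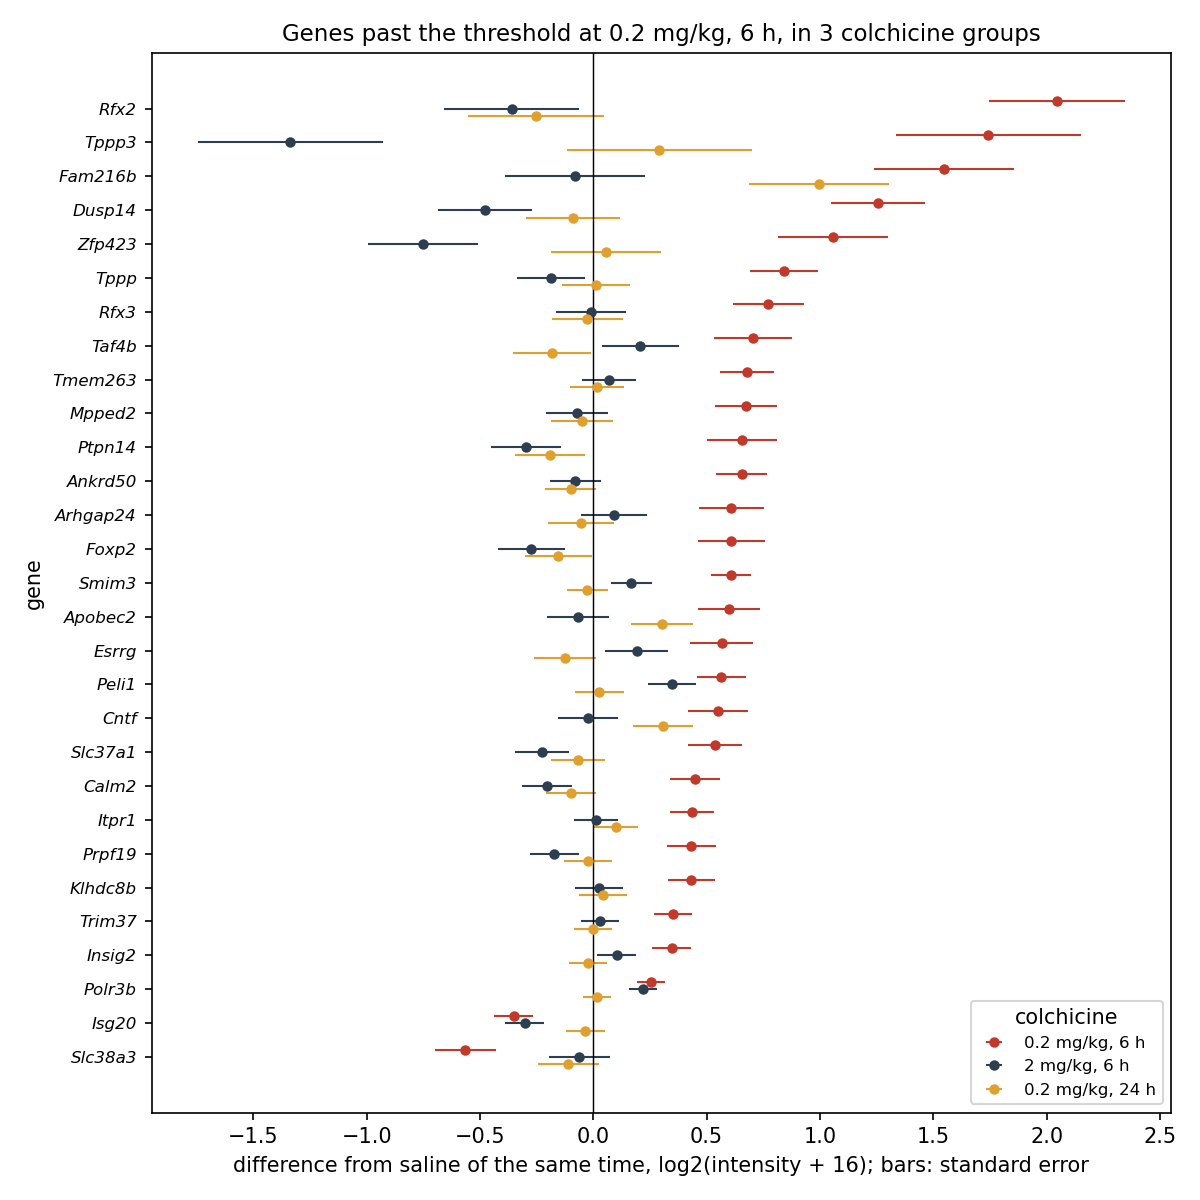
Difference from saline of the same time, on the log2(intensity + 16) scale with standard errors, for the 29 named genes past the threshold at 0.2 mg/kg, 6 h, in 3 colchicine groups. Rfx2 is at 2.05 at 0.2 mg/kg, 6 h, and at -0.36 and -0.25 at 2 mg/kg, 6 h, and 0.2 mg/kg, 24 h; the genes were selected on the first of these, and the 6 h groups share saline.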

How the data were processed

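The authors deposited a table of normalized array intensities on a linear scale, 9.76 to 39497, with no background or normalization method given in the sources used here. Log2(intensity + 16) was taken of the deposited intensity, and no further scaling was applied. Of 31042 probe sets, 20826 had 1 gene symbol, 436 several and 9780 none; symbols were updated through gene identifiers to RefSeq (GRCr8; 20758 matched). Each of 14217 genes was represented by its probe set of highest mean, and 11323 that exceeded the 40th percentile of their array on at least 5 arrays were tested. One model with a mean for each of 14 groups was fitted over all 82 arrays with limma 3.58.1 (R 4.3.3; 68 residual degrees of freedom, prior 4.7), with Benjamini-Hochberg adjustment over all genes tested. The precision is limited by 6 arrays a group. On simulated data for the 6 h comparison over 11323 genes, 90% of 50 genes changed by 0.5 on the log2 scale were called, 98% at 1, and 100% at 1.5 and at 2, with 12 false among 206 calls. The simulation shifted every colchicine heart alike and drew independent normal noise. Its shares therefore do not hold for genes that split the colchicine hearts, such as Tuba4a, which was not called.

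The members and gene lists were chosen with earlier results of these data known. Genes named are all those past the threshold with a symbol other than LOC or RGD, every tubulin, up to 5 members of each other microtubule list and up to 3 of each further list by unadjusted p, and the 10 largest rises and 10 largest falls without the arrays that stand apart; values of a part of them are printed. The 2 LOC genes past the threshold, and Rfx1, Tekt4, Ift46, Myh6 and Tnnt2, were named in addition, after their values were seen. Same-numbered colchicine and saline arrays had correlations of their deviations from -0.383 to 0.281, and no array correlated best with its own number, so the numbers were not taken as pairs. The alternative without the arrays that stand apart was chosen after seeing the data. No identical arrays were found within groups.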

Additional observations from a re-analysis of the deposited data

Results flagged for a closer look

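In the saline group at 6 h, Foxp2 read 128 in replicate 2 and 67.5 to 85.7 in the other hearts, and Calm2 read 3327 in replicate 6 and 4504 to 4896 in the others. Both gaps exceeded the 95% limit of Dixon's test for 6 values. In all 80 pairs of a gene and a group were examined and 2 were found, below the rate of about 1 in 20 that chance alone gives. The test sets the most extreme value against its neighbour. It therefore cannot flag 2 arrays that stand off together, as colchicine replicates 1 and 6 do in Tuba4a.

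The low-dose change differed between times in Rfx2 (24 h minus 6 h, -2.30 on the log2 scale), Smim3 (-0.63) and Ankrd50 (-0.75), by the interaction contrast.

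Among 4968 probe sets with no gene symbol or several, 1 was past the threshold (0.0201%): 1395349_at was higher by 0.71 on the log2 scale after colchicine (limma, Benjamini-Hochberg adjusted p = 0.019), at a mean of 252 against 142 in saline. Its colchicine replicates 1 and 6 were the 2 nearest saline. Probe sets of this kind have no gene name here.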

How the results depend on the processing

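The count of genes past the threshold at 6 h, 31, was 26 with an added constant of 1, 31 with 64, 23 with no filter on low values, 30 with the filter at the 60th percentile, 45 after quantile normalization (36 higher, 9 lower), 32 without the 6 arrays whose descriptions end in _2 and 33 with a trended, robust prior. The mean of probe sets gave 48, array weights 146, the compared groups alone 4, the fit without the arrays that stand apart 166, and leaving out 1 heart in turn 9 to 80. The count of tubulins past the threshold, 0, became 1 after quantile normalization, 6 with array weights, 6 without the arrays that stand apart and 0 to 4 with 1 heart left out (4 without colchicine replicate 1, 3 without replicate 6). The dose count of 1042 became 2621 with array weights, 1715 without the arrays that stand apart, and 684 to 1600 with 1 heart left out, the extremes without replicates 2 and 4 at 2 mg/kg. The time count of 3 became 5 when probe sets were averaged, 41 under weighted arrays, 0 with the compared groups alone, 62 without the arrays that stand apart, and 0 to 9 with 1 heart left out, 0 without colchicine replicate 5 and 9 without replicate 1 at 6 h. It was 1 without colchicine replicates 2 or 3 or saline replicates 3 or 6 at 6 h, and without colchicine replicates 1 or 5 or saline replicates 3 or 4 at 24 h.

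With replicate number as a block the counts were 42 genes at 6 h, 1075 between doses and 4 between times, and 1 tubulin. The numbers do not pair the animals, and the block took away none of the 29 named calls.

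Signs turned only in genes that did not pass: Mdm2 went to 0.0119 when probe sets were averaged, Dnai1 to 0.0272 under weighted arrays and 0.0339 without the arrays that stand apart, Tnni3 to -0.00694 without those arrays, and Myl4 to 0.139 without the arrays ending in _2. With 1 heart left out the log2 difference ran from -0.0716 to 0.0321 in Dnai1, from -0.939 to 0.139 in Myl4 (above 0 only without saline replicate 2) and from -0.182 to 0.00835 in Lcn2 (above 0 only without colchicine replicate 5). The cause of these differences was not tested. Array signal limits the dim genes: 2 of the 31 were below the minimum intensity on all saline arrays. Isg20 and LOC102549303, which fell, exceeded it on 0 colchicine arrays, and on 2 and 4 of the saline arrays at 6 h. The size of change of all these genes is the least certain.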

Other observations

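Without the arrays that stand apart, the largest rises beyond the genes already described were in Tgm1, transglutaminase 1, and Etfbkmt, a mitochondrial methyltransferase. Tgm1 ran from 35.6 to 46.4 in saline and from 39.5 to 161 after colchicine, and Etfbkmt from 467 to 884 and from 527 to 1782. With all arrays neither passed (log2 differences 0.84 ± 0.47 and 0.71 ± 0.20; limma, Benjamini-Hochberg adjusted p = 0.79 and 0.12).

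Among falls without those arrays were Asb2, a muscle ubiquitin ligase adaptor (-0.84), Phldb2, a protein that anchors microtubule ends at the cell cortex (-0.67), and Lysmd4 (-0.64). Asb2 ran from 1854 to 3113 in saline and from 1217 to 3210 after colchicine, and Phldb2 from 180 to 261 and from 114 to 232. With all arrays none of the 3 passed (limma, Benjamini-Hochberg adjusted p = 0.74, 0.14 and 0.60).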
